A study of Mus musculus with 12 samples.

Results

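The 9 genes described here encode receptors that steer lymphocytes between blood, lymphoid organs and tissues or hold them in place: S1pr1, Ccr7, Ccr9, Cxcr3, Cxcr4, Itgae, Itgb7, Cd69 and Cd44. They were chosen by name, as the rows of the deposited count table whose Ensembl ID maps to these symbols, and all 9 were found among 56691 gene IDs. RNA was sequenced from CD8+ T cells of mouse spleen with a normal (WT) or a conditionally deleted (CKO) Senp1 gene, which encodes a protease that removes the small modifier SUMO from proteins. Cells of each genotype were taken either before culture, called 0 h, or after 48 h with antibodies to CD3 (5 µg/ml) and CD28 (1 µg/ml), which stand in for antigen and costimulation. Each of the 4 groups had 3 libraries, and the series is titled as a study of Senp1 in CD8+ T cell activation. The sources used here do not give the Cre line, the deleted exons, the strain, the age of the mice or the way the cells were purified. Nothing in the labels says that the 3 libraries of a group came from separate mice, so the p-values measure the spread between these libraries, which may be technical.

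Naive CD8+ T cells recirculate. CCR7 brings them into lymph nodes, and S1PR1, the receptor for sphingosine-1-phosphate, brings them out again. After antigen contact CD69 binds S1PR1 and removes it from the surface, which keeps cells in the tissue, and the transcription factor KLF2, which drives S1pr1, is shut off. CCR9 and the integrins built from the beta7 chain (Itgb7) direct cells to the gut, the alphaE chain (Itgae, CD103) pairs with beta7 to hold cells at epithelia, CXCR3 leads effector cells to inflamed tissue, CXCR4 responds to CXCL12 in bone marrow, and CD44 binds hyaluronan and marks antigen-experienced cells.

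Library totals ran from 15900529 to 22427151 counts. Levels below are in CPM, each count divided by its library total after TMM scaling, a correction for differences in RNA composition. Senp1, the deleted gene, stood at 82.4 ± 3.99 CPM in WT and 57.0 ± 2.64 in CKO at 0 h, and at 161.7 ± 10.5 and 70.3 ± 4.13 at 48 h (SD, n = 3). All 9 CD8 T cell markers were detected in every group. The 15 B cell markers summed to 1825 to 3249 CPM in WT and 1325 to 1544 in CKO at 0 h, with the highest sum in WT replicate 1, and to 386.1 to 521.8 and 394.2 to 432.4 CPM at 48 h. None of the B cell markers was at 0 in any group. Of the 8 neutrophil markers 7 were detected in both 0 h groups, with mean sums of 4.81 ± 2.85 CPM in WT and 5.66 ± 3.61 in CKO cells. Only Ly6g was at 0 there. At 48 h 2 of the 8 were detected in each genotype, with mean sums of 0.0651 CPM in WT and 0.143 in CKO cells.

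Before culture Ccr7 was the most abundant of the 9 per kilobase of exon, and Ccr9, Cd44 and Cxcr3 were the least. The length taken was that of all annotated exons of a gene together, 10.26 kb for Ccr9 and 1.978 kb for Ccr7. It can exceed the length of 1 transcript, so the order depends on the annotation. In plain CPM the WT order at 0 h differed. S1pr1 (1652) stood above Ccr7 (1439), Cd69 (694) above Cxcr4 (647) and Itgb7 (526), and Ccr9 (90.2) above Cd44 (57.6). In WT at 0 h Ccr7 had 727 ± 32.3 CPM per kilobase of exon, S1pr1 542 ± 55.6, Cxcr4 358 ± 6.13, Itgb7 190 ± 1.31, Cd69 107 ± 18.7 and Itgae 26.7 ± 1.86 (SD, n = 3). The libraries of these 6 genes did not overlap with those of the next in order. Ccr9 at 8.79 ± 0.388, Cd44 at 8.51 ± 3.11 and Cxcr3 at 6.76 ± 2.08 CPM per kilobase overlapped. CKO cells at 0 h had the same first 7, and there Ccr9, at 20.0 ± 2.27 CPM per kilobase, stood clear of Cxcr3 and Cd44, which overlapped at 5.64 ± 1.41 and 5.51 ± 1.61. After 48 h the WT order was Ccr7 (463 ± 87.4 CPM per kilobase), Cd69 (63.2 ± 1.01), Cd44 (38.2 ± 4.13), Itgb7 (27.9 ± 1.88), Cxcr4 (13.1 ± 2.63), S1pr1 (4.54 ± 0.431), Cxcr3 (1.97 ± 0.291), Itgae (0.315 ± 0.155) and Ccr9 (0.0910 ± 0.0242), with no overlap between neighbours. In CKO cells at 48 h the order was the same, but Cd69 (65.8 ± 3.39) overlapped with Cd44 (60.8 ± 5.73), and Itgae (0.480 ± 0.0694) with Ccr9 (0.373 ± 0.117).

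**Figure D1:**
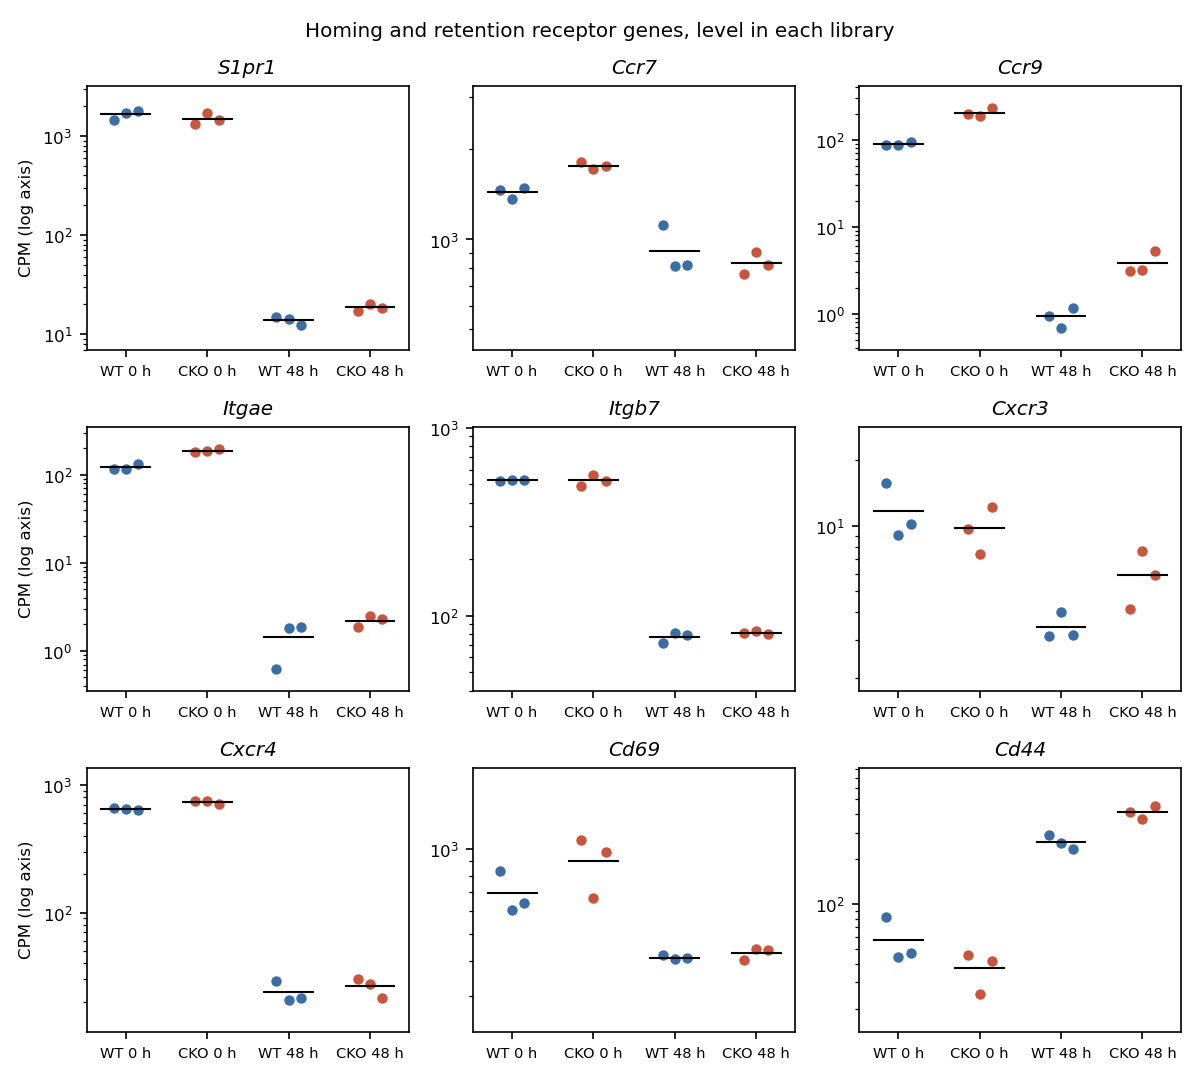
Level of each of the 9 receptor genes in each library, in CPM on a log axis (vertical), for WT and CKO cells at 0 h and 48 h (horizontal); each point is 1 library and each bar the mean of 3. S1pr1 drops from 1652 CPM to 13.8 CPM in WT, Cd44 is the one gene that is higher at 48 h, and the CKO points of Ccr9 lie above the WT points at both times.

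After 48 h with the antibodies 8 of the 9 genes were lower than at 0 h and 1, Cd44, was higher, in both genotypes. No group was cultured for 48 h without the antibodies, so stimulation and time in culture cannot be told apart. The word stimulation stands for both here. In WT all 9 passed the test (edgeR quasi-likelihood, adjusted p under 0.05 over 15935 genes), and in CKO cells all 9 did too. Most genes of these cells moved, however: 77.9% of all genes tested were called between 0 h and 48 h in WT (38.7% higher and 39.1% lower) and 77.7% in CKO cells (38.5% higher and 39.2% lower). The libraries of the times did not overlap for all 9 members in WT and for 8 in CKO cells, as for 79.4% and 81% of all genes tested. The median log2 change of the 9 was -2.77 in WT and -2.69 in CKO cells, beside -0.03 and -0.04 over all genes tested. In bulk RNA, fewer cells of a type and less RNA per cell cannot be told apart. Of the markers of other cells, all 15 B cell genes fell with stimulation in WT and 14 of 15 in CKO cells, as did 14 and 13 of the 15 markers of natural killer and innate-like lymphocytes. Their part in the changes of the 9 genes was not tested.

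The exit receptor S1pr1 had the largest fall of the 9 in WT, and only Itgae fell more in CKO cells. Its 3 WT libraries held 1459, 1718 and 1778 CPM at 0 h and 14.8, 14.4 and 12.3 CPM at 48 h. Its CKO libraries held 1317, 1723 and 1446 CPM, and then 17.2, 20.3 and 18.4 CPM. Every 48 h library was far below every 0 h library, and the level at 48 h was 0.837% of that at 0 h in WT and 1.24% in CKO cells. The log2 changes were -6.90 ± 0.130 (SE) and -6.33 ± 0.127 (edgeR adjusted p = 2.92e-16 and 6.07e-16).

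Cd69, whose product takes S1PR1 off the surface, is an early activation gene, yet its RNA was lower at 48 h than at 0 h. WT libraries held 833.5, 606.2 and 643.0 CPM at 0 h and 418.9, 406.1 and 409.9 at 48 h. CKO libraries held 1070, 666.8 and 974.0 CPM at 0 h and 403.1, 442.7 and 439.7 at 48 h. The 0 h libraries were scattered and the 48 h libraries close together, without overlap between the times. Cd69 fell by 0.75 ± 0.169 on the log2 scale in WT and by 1.08 ± 0.170 in CKO cells (edgeR adjusted p = 0.00234 and 0.000229).

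Among the chemokine receptors Ccr9 and Cxcr4 fell steeply and Ccr7 and Cxcr3 less. Ccr9 stood at 88.3, 87.5 and 94.8 CPM in WT at 0 h and at 0.936, 0.684 and 1.18 CPM at 48 h, which is 18, 13 and 26 counts. In CKO cells it stood at 198.0, 185.5 and 230.6 CPM, and then at 3.08, 3.18 and 5.21 CPM, which is 55, 58 and 103 counts. No library of one time overlapped with the other, and no CKO library overlapped with a WT library of the same time. The log2 changes of Ccr9 with stimulation were -6.57 ± 0.182 in WT and -5.73 ± 0.150 in CKO cells (edgeR adjusted p = 1.73e-14 and 8.90e-15). Cxcr4 held 657.7, 647.4 and 635.6 CPM in WT at 0 h and 29.2, 20.7 and 21.3 at 48 h, and 756.4, 754.1 and 715.8 and then 29.9, 27.6 and 21.6 CPM in CKO cells. Its 0 h libraries lay within a narrow range, far above those at 48 h, and it fell by 4.77 ± 0.135 and 4.82 ± 0.135 on the log2 scale (edgeR adjusted p = 5.82e-13 and 5.29e-13).

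Ccr7, the lymph node receptor, stayed the most abundant of the 9 per kilobase after stimulation. It held 1464, 1366 and 1486 CPM in WT at 0 h and 1115, 813 and 819 at 48 h, against 1812, 1725 and 1756 and then 766, 911 and 825 CPM in CKO cells. WT replicate 1 was the highest library at 48 h, and no library overlapped between the times. Ccr7 fell by 0.65 ± 0.103 on the log2 scale in WT and by 1.08 ± 0.104 in CKO cells (edgeR adjusted p = 4.87e-05 and 2.65e-07). Cxcr3, the effector cell receptor, was low throughout, with 15.8, 9.06 and 10.2 CPM in WT and 9.65, 7.39 and 12.2 CPM in CKO cells at 0 h. At 48 h it held 3.12, 3.999 and 3.13 CPM in WT and 4.15, 7.68 and 5.92 CPM in CKO cells, where 1 library overlapped with 0 h. Its log2 change was -1.77 ± 0.258 in WT (edgeR adjusted p = 7.14e-06) and -0.72 ± 0.249 in CKO cells (edgeR adjusted p = 0.0143). The CKO call was lost without CKO 0 h replicate 3 (adjusted p = 0.0890) or without CKO 48 h replicate 1 (adjusted p = 0.0752), with a log2 change of -0.52 in both.

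The alphaE chain and its beta7 partner fell to different extents. Itgae held 118.1, 116.7 and 132.1 CPM in WT at 0 h and 0.624, 1.84 and 1.86 CPM at 48 h, which is 12, 35 and 41 counts. In CKO cells it held 184.1, 185.3 and 194.3 CPM, and then 1.85, 2.47 and 2.28 CPM from 33, 45 and 45 counts. The 0 h libraries were tight, WT replicate 1 was the lowest at 48 h, and the times did not overlap. Its log2 changes were -6.38 ± 0.170 in WT and -6.41 ± 0.162 in CKO cells (edgeR adjusted p = 1.30e-14 and 6.93e-15), so that 1.20% and 1.18% of the 0 h level was left. Itgb7 held 521.5, 528.2 and 527.3 CPM in WT at 0 h and 71.3, 81.0 and 79.3 at 48 h, against 493.2, 561.2 and 519.5 and then 80.8, 82.7 and 80.04 CPM in CKO cells. Its libraries differed little within a time and did not overlap between times, and it fell by 2.77 ± 0.0657 and 2.69 ± 0.0656 on the log2 scale (edgeR adjusted p = 6.40e-18 and 9.73e-18).

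Cd44, the hyaluronan receptor, was the one member that rose. It held 81.9, 44.2 and 46.8 CPM in WT at 0 h and 287.7, 257.6 and 231.9 at 48 h. In CKO cells it held 45.5, 25.0 and 41.5 CPM at 0 h and 411.5, 372.9 and 450.6 at 48 h. WT replicate 1 was the highest library at 0 h and CKO replicate 2 the lowest, and the times did not overlap. Cd44 rose 4.50-fold in WT and 11-fold in CKO cells, log2 changes of 2.17 ± 0.280 and 3.46 ± 0.297 (edgeR adjusted p = 9.08e-05 and 4.98e-06).

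**Figure D2:**
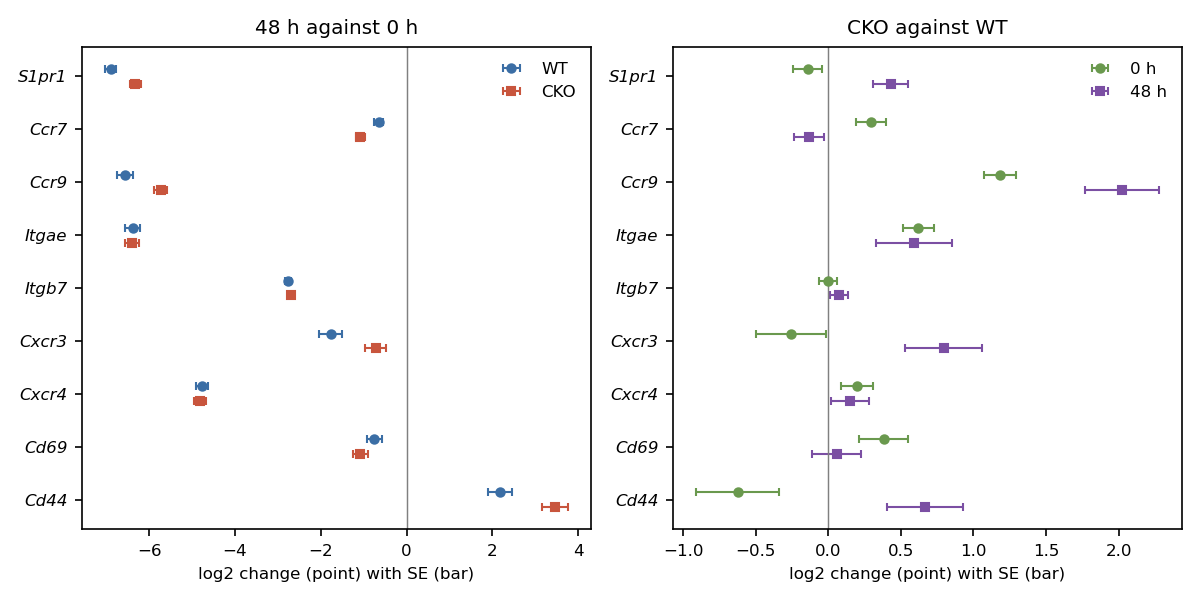
Log2 changes (horizontal) of the 9 genes (vertical) with stimulation in each genotype and between genotypes at each time; points are edgeR estimates and bars their standard errors. Cd44 alone lies to the right with stimulation, and Ccr9 lies farthest to the right between genotypes, at 1.18 at 0 h and 2.02 at 48 h.

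The upstream windows of these genes show what lies next to their start sites. RefSeq promoters (GRCm38.p6) were at hand for 5 of the 9, Ccr9, Itgb7, Cxcr3, Cxcr4 and Cd44, and the 250 bases before the start are printed for 3: Ccr9, the gene that differs most between genotypes, Itgb7, the member whose window holds the most matches, and Cd44, the member that rose. Capitals mark a match on either strand to one of 8 short words searched: CACCC (KLF family), GTAAACA (FOXO), TGANTCA (AP-1), CACGTG (E-box), TGTGGT (RUNX), CAGAC (SMAD), CCGGAAG (ETS) and GGTGTGA (T-bet and Eomes). The windows are chr9:123766961-123767210 on the plus strand, chr15:102231936-102232185 on the minus strand and chr2:102901666-102901915 on the minus strand, each written 5′ to 3′ along the gene.
Ccr9: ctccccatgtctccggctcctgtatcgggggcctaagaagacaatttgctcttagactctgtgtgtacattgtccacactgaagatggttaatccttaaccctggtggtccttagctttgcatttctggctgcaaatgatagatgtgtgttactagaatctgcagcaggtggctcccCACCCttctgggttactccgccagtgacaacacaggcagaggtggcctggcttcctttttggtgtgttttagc
Itgb7: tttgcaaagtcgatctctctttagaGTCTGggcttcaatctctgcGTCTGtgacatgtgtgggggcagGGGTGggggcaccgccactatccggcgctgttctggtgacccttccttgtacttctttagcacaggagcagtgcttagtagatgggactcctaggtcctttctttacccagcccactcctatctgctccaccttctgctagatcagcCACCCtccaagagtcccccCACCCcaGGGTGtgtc
Cd44: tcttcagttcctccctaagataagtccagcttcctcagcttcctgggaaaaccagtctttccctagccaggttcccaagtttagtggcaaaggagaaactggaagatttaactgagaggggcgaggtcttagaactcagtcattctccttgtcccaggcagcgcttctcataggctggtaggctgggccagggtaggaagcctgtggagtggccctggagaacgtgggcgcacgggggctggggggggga

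CACCC, the word bound by KLF2, occurred in 3 of the 5 windows, Ccr9, Itgb7 and Cxcr4, beside 52% of 32817 promoters of this length. The Ccr9 window above held it 1 time, from base -73, and the Itgb7 window held it at 4 places, from bases -182, -35, -16 and -9 before the start. CAGAC occurred in 1 window, that of Itgb7, beside 42.2% of promoters, and TGTGGT in 1, that of Cxcr3, beside 14%. The other 5 words matched none of the 5 windows; they occur in 3.16% (FOXO), 6.75% (AP-1), 6.02% (E-box), 6.9% (ETS) and 3.33% (T-bet and Eomes) of promoters. The Cd44 window held none of the 8. A match is a stretch of letters and not a measured binding site.

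Without stimulation, Senp1 CKO cells had more RNA of the gut-homing receptor Ccr9 and of the alphaE integrin gene Itgae than WT cells. Of the 9 members 2 were called higher and 0 lower at 0 h (edgeR), and 4 had an unadjusted p under 0.05, beside 21.1% of all genes tested. Of all genes tested 7.48% were called, 4.1% higher and 3.38% lower. In 4 members, Ccr7, Ccr9, Itgae and Cxcr4, every CKO library lay above every WT library, and in 0 members below, beside 12% and 12.6% of all genes tested. The median log2 difference of the 9 was 0.20, beside -0.01 over all genes. The genotype comparisons share no library with each other, but each shares its libraries with the comparisons of time above.

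Ccr9 was 2.27-fold higher in CKO cells at 0 h, a log2 difference of 1.18 ± 0.111 (edgeR adjusted p = 5.78e-06). All 3 CKO libraries, at 185.5 to 230.6 CPM, lay above the highest WT library at 94.8 CPM. Itgae was 1.54-fold higher, a log2 difference of 0.62 ± 0.109 (edgeR adjusted p = 0.00247), with CKO libraries from 184.1 CPM and WT libraries up to 132.1 CPM. Both passed in each of the 20 alternatives tried. Its partner Itgb7 had a mean of 525.7 ± 3.62 CPM in WT and 524.6 ± 34.3 in CKO cells at 0 h, and the 95% interval of the log2 difference ran from -0.14 to 0.14 (edgeR adjusted p = 0.988).

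Genes of the gamma-delta T cell receptor were higher in CKO cells as well. Trdc, the delta constant region, held 54.5, 32.5 and 40.9 CPM in WT and 76.1, 95.8 and 91.6 CPM in CKO cells at 0 h, a log2 difference of 1.05 ± 0.201 (edgeR adjusted p = 0.0122). That call was lost without WT 0 h replicate 3 (adjusted p = 0.0548) and with only the 0 h groups in the fit (0.0596). At 48 h it held 11.9, 7.10 and 7.81 CPM in WT and 21.6, 26.1 and 22.8 in CKO cells, a difference of 1.40 ± 0.236 (edgeR adjusted p = 0.00804). The gamma constant genes Tcrg-C1, Tcrg-C2 and Tcrg-C4 were higher by 1.17, 1.00 and 1.22 at 0 h and by 1.60, 2.12 and 1.88 at 48 h on the log2 scale, all past the threshold. These 4 were the only ones called higher at either time among the 15 markers of natural killer and innate-like lymphocytes, none of which was at 0. Of all genes tested 4.1% were called higher at 0 h and 2.35% at 48 h. Klra7, a receptor gene of natural killer cells in the same list, was lower in CKO cells at 48 h, with 0.929 ± 0.0725 CPM against 1.98 ± 0.423 in WT (edgeR adjusted p = 0.0419). That call was lost without WT 48 h replicate 1 or 2 or any 1 of the CKO 48 h libraries (adjusted p from 0.104 to 0.134) and with only the 48 h groups in the fit (0.0680). The 15 summed to 233.0 to 320.4 CPM in WT and 318.6 to 446.0 in CKO cells at 0 h, and to 245.1 to 283.1 and 188.8 to 250.1 CPM at 48 h. Most of the 48 h sums came from 1 gene, Eomes, with means of 239 CPM in WT and 166 in CKO cells. The mean sums were 268 and 226 CPM. Eomes rose with stimulation by 1.87 in WT and 1.27 in CKO cells on the log2 scale, so these sums do not follow the other markers. The part of the 15 genes in the differences of Ccr9 and Itgae was not tested. Of the 9 CD8 T cell markers 2 were lower in CKO cells at 0 h and 3 at 48 h, beside 3.38% and 2.19% of all genes tested. Among them was Cd8a at both times, by log2 differences of -0.19 ± 0.0560 and -0.36 ± 0.0563 (edgeR adjusted p = 0.0423 and 0.000480). The 0 h call of Cd8a was lost in 12 of 20 alternatives, 9 of them with 1 library left out (each library but WT 0 h replicate 1, WT 48 h replicate 1 and CKO 0 h replicate 2), with an adjusted p of up to 0.178.

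The other 6 members did not pass at 0 h. Ccr7 had a mean of 1439 ± 63.9 CPM in WT and 1764 ± 43.8 in CKO cells without overlap, a log2 difference of 0.29 ± 0.103 (edgeR adjusted p = 0.111). That p ran from 0.000107 to 0.274 over the alternatives and was under the threshold in 5 of 20. Cxcr4 had 646.9 ± 11.1 and 742.1 ± 22.8 CPM, also without overlap, a difference of 0.20 ± 0.112 (edgeR adjusted p = 0.352, and 0.0246 with only the 0 h groups in the fit). For S1pr1 the difference was -0.14 with a 95% interval from -0.37 to 0.08, and for Cxcr3 -0.26, from -0.81 to 0.29. Cd69 had 694 ± 122 CPM in WT and 904 ± 211 in CKO cells, where replicate 2 was the lowest library, a log2 difference of 0.38 ± 0.168 (edgeR adjusted p = 0.235). Without that library the difference was 0.55 (edgeR adjusted p = 0.00456). Cd44 had 57.6 ± 21.1 and 37.4 ± 10.9 CPM, a difference of -0.62 ± 0.287 (edgeR adjusted p = 0.265), with WT replicate 1 the highest. That WT library was also the highest in B cell markers, as given above, and the part of such cells in the Cd44 difference was not tested. With 1 library left out the Cd44 difference at 0 h ran from -0.79 to -0.29, and it was not called in any alternative.

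At 48 h Ccr9 was the one member called between genotypes, at 4.06-fold the WT level in CKO cells. Of all genes tested 4.54% were called at 48 h, 2.35% higher and 2.19% lower, and 5 members had an unadjusted p under 0.05, beside 16.7% of all genes tested. In 4 members, S1pr1, Ccr9, Cxcr3 and Cd44, every CKO library lay above every WT library, and in 0 members below, beside 11.5% and 12.2% of all genes tested. The median log2 difference of the 9 was 0.43, beside -0.01 over all genes.

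Ccr9 had 0.933 ± 0.248 CPM in WT and 3.83 ± 1.20 CPM in CKO cells at 48 h, so the difference rests on 13 to 26 counts per WT library and 55 to 103 per CKO library. The log2 difference was 2.02 ± 0.256 (edgeR adjusted p = 0.000176), and it stayed between 1.72 and 2.25 and past the threshold in all 20 alternatives. S1pr1 had 13.8 ± 1.31 CPM in WT and 18.6 ± 1.54 in CKO cells, a log2 difference of 0.43 ± 0.121 just outside the threshold (edgeR adjusted p = 0.0607). Over the alternatives its adjusted p ran from 1.95e-05 to 0.172 and was under 0.05 in 8 of 20, among them DESeq2 (0.00997). It was also under 0.05 without WT 0 h replicate 1 (0.0321), CKO 0 h replicate 1 (0.0332) or CKO 0 h replicate 2 (0.0162).

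Cd44 had 259 ± 28.0 CPM in WT and 411.7 ± 38.8 in CKO cells at 48 h, without overlap. The log2 difference was 0.67 ± 0.263 (edgeR adjusted p = 0.241), and a fit of the 48 h groups alone gave 0.67 ± 0.0887 (edgeR adjusted p = 0.00187). The wider spread of Cd44 at 0 h enters the first of these fits and not the second. Cxcr3 had 3.42 ± 0.504 and 5.92 ± 1.77 CPM, a difference of 0.79 ± 0.265 (edgeR adjusted p = 0.111). Itgae, called at 0 h, had 1.44 ± 0.709 and 2.198 ± 0.318 CPM at 48 h, a difference of 0.59 ± 0.262 (edgeR adjusted p = 0.262). For the remaining 4 the 95% intervals of the log2 difference ran from -0.37 to 0.10 (Ccr7), from -0.07 to 0.22 (Itgb7), from -0.15 to 0.45 (Cxcr4) and from -0.33 to 0.45 (Cd69).

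Whether stimulation acted differently in the 2 genotypes was tested as an interaction, the CKO change minus the WT change. None of the 9 passed in edgeR, where 1.38% of all genes did. At an unadjusted p under 0.05 there were 5, beside 12.8% of all genes. DESeq2 called 3, and edgeR with no count filter called 4, beside 417 and 576 of 30285 genes with at least 1 count. With a replicate block edgeR called S1pr1 and Ccr9 (adjusted p = 0.0154 and 0.0491), beside 281 of 15935 genes. The 5 were S1pr1 at 0.57 ± 0.155 (edgeR adjusted p = 0.101, but 0.0349 without WT 0 h replicate 1 and 0.0110 without CKO 0 h replicate 2), Ccr7 at -0.43 ± 0.146 (0.203), Ccr9 at 0.84 ± 0.288 (0.203), Cxcr3 at 1.05 ± 0.357 (0.191) and Cd44 at 1.29 ± 0.389 (0.198). The difference of Itgae between genotypes at 0 h was therefore not shown to differ from that at 48 h, with an interaction of -0.03 ± 0.312 (edgeR adjusted p = 0.993).

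**Figure D3:**
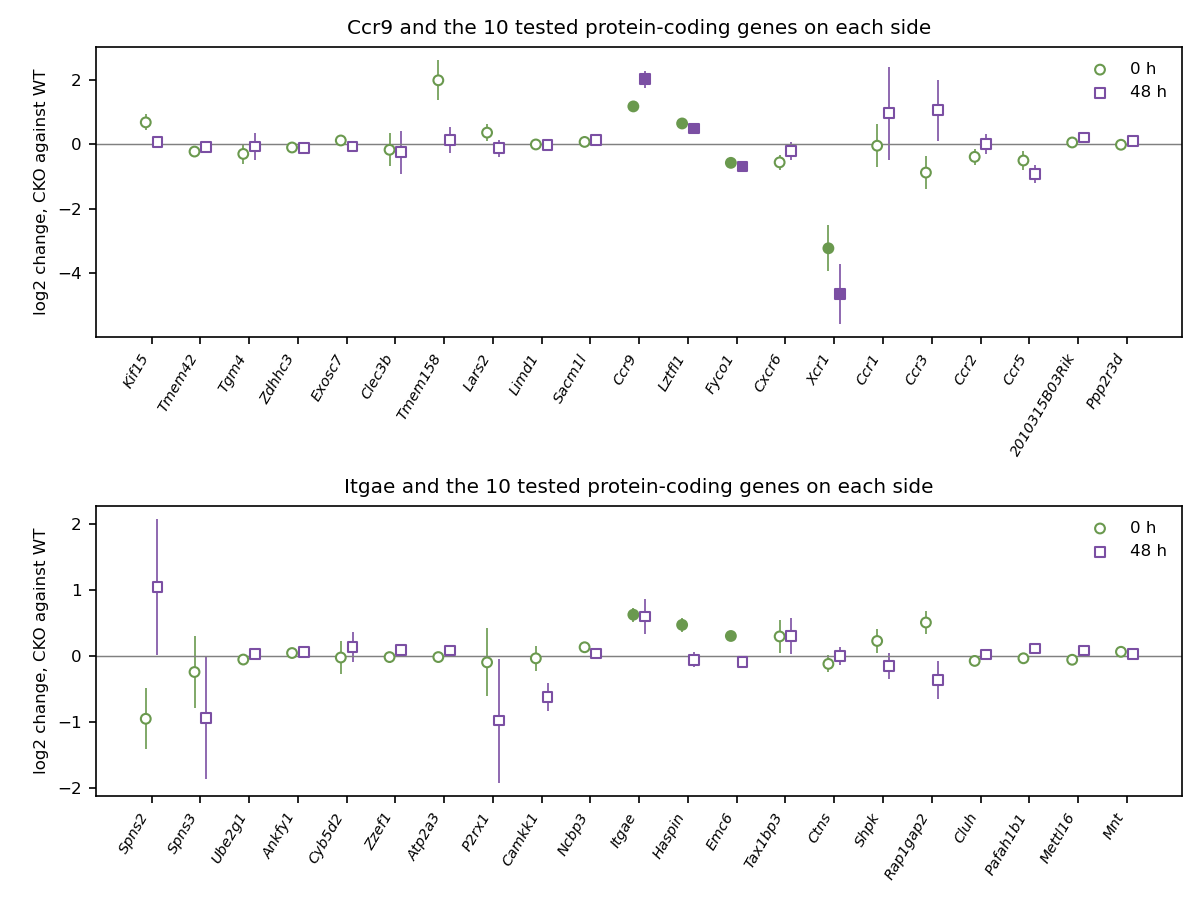
Log2 difference between CKO and WT (vertical) for the 10 tested protein-coding genes on each side, in order along the chromosome around Ccr9 and Itgae (horizontal), at 0 h and 48 h; bars are standard errors, filled points have an adjusted p under 0.05 and hollow points do not. Beside Ccr9, Lztfl1 is higher and Fyco1 and Xcr1 are lower in CKO cells at both times.

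Some genes next to Ccr9 also differed between genotypes, in both directions. The share called within 2 Mb, given below, was near that over all genes tested. In the gene order of GENCODE M21 (GRCm38), the next tested protein-coding gene, Lztfl1, a regulator of ciliary transport, was higher in CKO cells by 0.65 ± 0.112 at 0 h and 0.50 ± 0.115 at 48 h on the log2 scale (edgeR adjusted p = 0.00123 and 0.0157). Its 48 h call was lost without WT 48 h replicate 1 or 2 or any 1 of the CKO 48 h libraries (adjusted p from 0.0548 to 0.102). Fyco1, an adaptor that moves autophagosomes, was lower by a log2 difference of -0.57 ± 0.111 and -0.68 ± 0.125 (edgeR adjusted p = 0.00355 and 0.00273). Xcr1, a chemokine receptor of cross-presenting dendritic cells, had means of 1.57 CPM in WT and 0.162 CPM in CKO cells at 0 h, and of 1.06 and 0.0337 CPM at 48 h, where the CKO libraries held 2 counts in all (edgeR adjusted p = 0.00841 and 0.00465). Cxcr6, between Fyco1 and Xcr1, was not called at either time. Within 2 Mb on each side of Ccr9, 2 of 45 tested genes were higher and 2 lower at 0 h, or 8.89% beside 7.48% of all genes, and 1 and 2 at 48 h, or 6.67% beside 4.54%. Around Itgae 3 of 37 were higher and 0 lower at 0 h, or 8.11% beside 7.48% of all genes, and 0 were called at 48 h. Among the 3 was Haspin, a kinase gene inside the span of Itgae on the other strand, at 0.47 ± 0.109 (edgeR adjusted p = 0.0116, but 0.0592 without WT 0 h replicate 1 and 0.0681 without CKO 0 h replicate 1). The libraries were made with a stranded kit, but the sources used here do not give the strand setting of the counting. Only in a stretch that a receptor gene shares with a transcript on the other strand can their reads therefore not be told apart. By exons, Lztfl1 shares no base with Ccr9 and Haspin none with Itgae. The transcript AC165425.1, on the other strand, shares 18.8% of the 10260 exon bases of Ccr9 and had mean levels of 0.550 CPM in WT and 1.22 in CKO cells at 0 h.

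Members also differed in which genes they moved with. Likeness was measured as the root mean square difference of centred log2 CPM over the 12 libraries, which share the large step between 0 h and 48 h, so that small values are common. S1pr1 was closest to the transcription factor gene Klf2 (0.344). The next closest to it was the haemoglobin gene Hbb-bs (0.407), with 14.1 CPM in WT at 0 h and 0 at 48 h. Likeness of this kind is not a measure of regulation. Itgae was closest to S1pr1 (0.494). Ccr9 was closest to Itgae (0.641) and had no gene nearer. Itgb7 was closest to Kdm7a (0.0931), Ccr7 to Dtx3 (0.0958), Cd69 to Csrnp1 (0.118), Cxcr4 to Tcp11l2 (0.195), Cd44 to Marcksl1 (0.257) and Cxcr3 to Ccdc62 (0.277).

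Genes that act with the 9 were read from 8 lists with 165 further genes, of which 147 were tested. With stimulation 37 genes of these lists rose in WT and 88 fell. In CKO cells 33 of them rose and 85 fell. The share called was 85% in WT and 80.3% in CKO cells, beside 77.9% and 77.7% of all genes tested, so the CKO share is near the background. Klf2 held 1392 ± 133 CPM in WT at 0 h and 14.5 ± 1.83 at 48 h, against 1455 ± 83.6 and 12.5 ± 3.63 in CKO cells, log2 changes of -6.58 ± 0.186 and -6.87 ± 0.190 (edgeR adjusted p = 3.26e-11 and 2.67e-11). Of the transcription factors of homing receptor genes and their upstream receptors 4 rose and 16 fell of 23 in WT, among them Foxo1, which drives Klf2, by 1.85 ± 0.0619, and Tcf7, a factor of naive and memory cells, by 2.40 ± 0.0809. Of 17 further integrin genes 5 rose and 10 fell in WT. Among these Itga4, which pairs with Itgb7, fell from 732.6 ± 36.5 to 136.2 ± 22.9 CPM, and Itgax from 19.0 ± 2.82 to 0.336 ± 0.168 CPM. Itgax is also in the list of myeloid and dendritic cell markers, of which 9 fell and 1 rose of 13 tested in WT. The part of such cells in its fall was not tested. Of 18 other chemoattractant receptors 3 rose and 12 fell in WT, among them Gpr183, a receptor for oxysterols, by 3.18 ± 0.142 on the log2 scale.

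**Figure D4:**
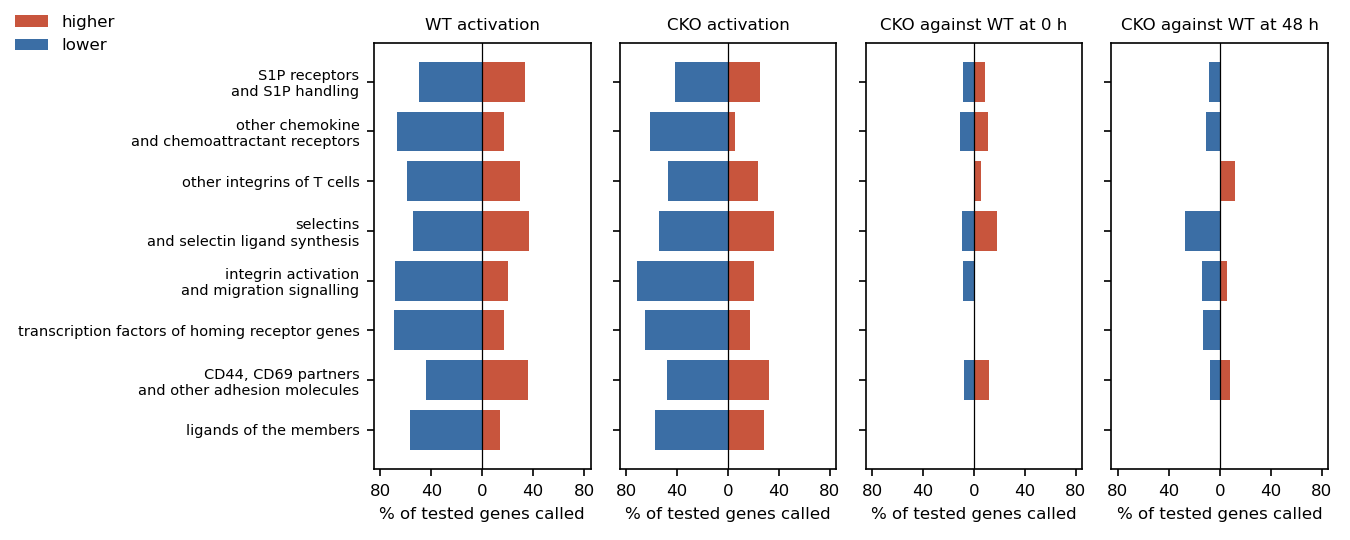
Percent of tested genes called higher (right) or lower (left) at an edgeR adjusted p under 0.05 (horizontal) in each of the 8 lists of genes that act with the receptors (vertical), with stimulation and between genotypes. Falls outnumber rises with stimulation in each of the 8 lists in both genotypes, and fewer genes of each list are called between genotypes than with stimulation.

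Between genotypes 9 of these 147 genes were higher and 9 lower in CKO cells at 0 h, and 6 higher and 16 lower at 48 h. These are 12.2% and 15% of the 147, beside 7.48% and 4.54% of all genes tested. Klf2 and Foxo1 were not called at 0 h, with log2 differences of 0.06 and 0.13 (edgeR adjusted p = 0.856 and 0.223). At 48 h 3 of the 23 were lower, Tcf7 by a log2 difference of -0.35 (edgeR adjusted p = 0.0108), Rara, a retinoic acid receptor, by -0.40 (0.0154) and Prdm1, the gene of Blimp-1, by -1.34 (0.0218). These 3 calls were lost without CKO 48 h replicate 3 (adjusted p = 0.0752, 0.121 and 0.114), that of Tcf7 also without CKO 48 h replicate 1 (0.0789) and that of Prdm1 also without CKO 48 h replicate 2 (0.0809), and all 3 with only the 48 h groups in the fit (0.0661, 0.0587 and 0.103). Of the 18 other chemoattractant receptors 2 were higher and 2 lower at 0 h. Cxcr5, which leads cells to B cell follicles, was lower at 0 h with 9.34 ± 2.35 CPM in CKO cells and 21.6 ± 4.83 in WT (edgeR adjusted p = 0.000418). It was also lower at 48 h, with 4.40 ± 0.97 CPM in CKO cells and 7.34 ± 0.444 in WT (edgeR adjusted p = 0.0483). The 48 h call was not read under the alternatives. The B cell marker sums given above were higher in WT at 0 h and overlapped between genotypes at 48 h. Their part in Cxcr5 was not tested. Cmklr1, a receptor for chemerin, was higher at 0 h with 5.27 ± 2.69 CPM in CKO cells and 1.92 ± 0.280 in WT (edgeR adjusted p = 0.0244). That call was lost without WT 0 h replicate 2 or 3 or CKO 0 h replicate 1 or 3 (adjusted p from 0.0722 to 0.223). Of the 12 tested genes of sphingosine-1-phosphate receptors and handling 1 was higher and 1 lower at 0 h. The higher one, S1pr5, a receptor related to S1pr1 and found in effector and natural killer cells, had 6.45 ± 2.09 and 2.89 ± 0.415 CPM in CKO and WT cells (edgeR adjusted p = 0.0200), a call lost without WT 0 h replicate 1 or 3 or CKO 0 h replicate 1 or 3 (adjusted p from 0.0614 to 0.117). At 48 h the integrin genes Itgb1 and Itgav were higher in CKO cells by 0.64 ± 0.108 and 0.47 ± 0.0717 (edgeR adjusted p = 0.00325 and 0.000426). The Itgb1 call was lost without WT 48 h replicate 1 (adjusted p = 0.0577).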

How the data were processed

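The authors deposited raw counts per Ensembl gene for 12 libraries of total RNA, made with a TruSeq Stranded mRNA kit per the labels' protocols. The submitters' processing notes name GRCm39, cutadapt, DESeq2 and HISAT2 2.2.1 and give neither their order nor their role. Which program counted the reads, and with which strand setting, is not given in the sources used here. Symbols were matched by ID for 52073 of 56691 gene IDs, and the IDs without one held 0.249% of counts. The 9 receptor genes and all lists were chosen with earlier results of these data known.

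Counts were scaled with TMM and fitted in 1 model of all 12 libraries with edgeR 4.0.16 (quasi-likelihood, robust, filterByExpr) in R 4.3.3, with 8 residual degrees of freedom. Genes with a Benjamini-Hochberg adjusted p under 0.05 over the 15935 genes tested were called. Standard errors are the log2 change divided by the square root of the F statistic, and intervals use the t distribution. The steps were tested on simulated data. Senp1, Klf2 and Foxo1 were named by rule. Genes named from a list are among its 3 called genes with the lowest adjusted p and a group mean of at least 1 CPM in some comparison; not all of these are named, and which were was chosen after their values were seen. The same holds for Cd8a, Eomes, Hbb-bs, Klra7, the gamma-delta receptor genes and the neighbours. The result of 1 gene is not reported here. Exon lengths and gene order came from GENCODE M21 (GRCm38), and promoters from RefSeq (GRCm38.p6). Alternatives were other scalings, no count filter and a stricter one (minimum 50 counts), a replicate block, fits of only the groups compared, each library left out, WT replicate 1 left out at both times, and DESeq2 1.42.0.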

Additional observations from a re-analysis of the deposited data

Results flagged for a closer look

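In edgeR the 4 other genes that follow and Klra7 passed the test of a different response to stimulation in CKO and WT cells. Of all 15935 genes tested 220, or 1.38%, passed it, and 12.8% had an unadjusted p under 0.05. Of the 9 receptors 0 passed it and 5 had an unadjusted p under 0.05. DESeq2 called 3 of the 9, beside 417 of 30285 genes with at least 1 count. The interaction, the log2 change in CKO cells minus that in WT, was -0.67 for Senp1 itself (edgeR adjusted p = 0.000926). It was 1.32 for Rgs2, a regulator of G protein signalling (edgeR adjusted p = 0.000577), which fell in both genotypes and less in CKO cells. It was 1.8 for Alcam, the gene of the adhesion molecule CD166 (edgeR adjusted p = 3.5e-05), which was lower in CKO cells at 0 h and higher at 48 h. It was 0.40 for Cd6, the gene of the receptor that binds CD166 (edgeR adjusted p = 0.0295). The Cd6 call was lost without any 1 of 8, WT 0 h replicates 1 and 2, WT 48 h replicate 2, CKO 0 h replicates 1 and 3 and all 3 of CKO 48 h (adjusted p from 0.0511 to 0.134). For Klra7, whose levels at 48 h are given above, the interaction was -1.56 ± 0.36 (edgeR adjusted p = 0.0335). It was not read under the alternatives.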

How the results depend on the processing

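Of 891 values of the 45 member changes under 20 alternatives, 836 kept direction and side of the threshold, 2 lost the call, 28 gained it and 25 turned direction; no called change turned. Members called at 0 h were 4 with only the groups compared. At 48 h they were 3 with no filter or only the groups compared, 2 with the stricter filter, the replicate block or DESeq2, and 1 to 2 with a library left out. For the interaction they were 4 with no filter, 2 with the block, 3 with DESeq2 and 0 to 1 with a library left out. Wider-list calls at 0 h, 18 in all, were 31 with no filter, 28 with the block and 8 to 30 with a library left out (8 without CKO 0 h replicate 3, 11 without WT 0 h replicate 3, 30 without WT 48 h replicate 1). At 48 h the 22 calls became 13 with only the groups compared and 8 to 26 with a library left out (8 without CKO 48 h replicate 3, 14 without CKO 48 h replicate 1). The 4 interaction calls became 15 with no filter, 9 with the block, 14 with DESeq2, 12 without WT replicate 1 at both times and 2 to 12 with a library left out. The cause was not tested. Over all genes the 1192, 724 and 220 calls at 0 h, 48 h and in the interaction ranged from 689 to 1585, 345 to 1204 and 115 to 576, and were 1313, 848 and 281 with the block. Over all pairs of groups, same-numbered libraries correlated at -0.01 to 0.16 in their deviations from group means. Between the 2 times of a genotype they correlated more than other pairs did. The values were 0.062 to 0.162 against -0.155 to 0.022 in WT, and 0.042 to 0.056 against -0.0335 to -0.0197 in CKO cells. The labels do not state a pairing, and the main fit used none. The replicate block is shared by both genotypes, so a pairing within a genotype was not fitted.

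Uncalled differences that turned were Itgb7 at 0 h (0.0139 with totals only, 0.00275 with the stricter filter, 0.00661 with only the groups compared, 8.9e-05 without WT replicate 1 at both times, -0.0585 to 0.0397 with a library left out), Ccr7 at 48 h (0.024 without WT replicate 1 at both times, -0.214 to 0.0239), Cxcr3 at 0 h (0.0281, -0.456 to 0.0137), and the interactions of Cxcr4 (0.0987, -0.158 to 0.111) and Itgae (-0.387 to 0.214). Klf2 at 0 h ran from -0.011 to 0.118 and Foxo1 at 48 h from -0.0158 to 0.080. Ccr9 and Itgae at 48 h rest on 12 to 103 counts a library, which limits their precision.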
